A study of Caenorhabditis elegans with 2 samples.

Results

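The citric acid cycle oxidizes acetyl groups in the mitochondrial matrix, and 10 nuclear genes for its core enzymes are described here by where the nuclear hormone receptor NHR-71 was found around them. The genes were chosen by name, not by a cut on a measured value, though earlier results of these data were known. These genes are cts-1, aco-2, idha-1, idhb-1, ogdh-1, dlst-1, dld-1, sucl-1, fum-1 and mdh-2. They are 10 of 19973 protein-coding genes on the nuclear chromosomes of Caenorhabditis elegans. For each gene the annotated gene body and the 5000 bp upstream of its start were searched (WBcel235, the assembly of the ce11 lists).

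In the cycle, citrate synthase joins an acetyl group to oxaloacetate, and aconitase, isocitrate dehydrogenase, 2-oxoglutarate dehydrogenase, succinyl-CoA ligase, succinate dehydrogenase, fumarase and malate dehydrogenase return the carbon skeleton to oxaloacetate while making NADH, a quinol and a nucleoside triphosphate. C. elegans also has a glyoxylate shunt, which lets larvae turn stored fat into sugar. Nuclear hormone receptors are zinc-finger transcription factors. The family is greatly expanded in C. elegans, and several of its members are known regulators of mitochondrial and fat metabolism.

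NHR-71 was mapped by chromatin immunoprecipitation and sequencing in 1 group with 2 biological replicates, each of whole hermaphrodite first-stage (L1) larvae. Strain OP480 carries unc-119(tm4063) III and the integrated transgene wgIs480, which adds NHR-71 with a C-terminal GFP-FLAG tag, and the immunoprecipitation used an antibody to GFP. Eggs had been freed by bleaching, the hatched larvae were synchronized by starvation, and they were taken 6 h later. Both replicates share strain, transgene, stage and antibody, so no comparison between conditions and no test was possible, and the values below are descriptions. What drives the transgene is not given in the sources used here, and in whole larvae, binding in fewer cells and weaker binding per cell cannot be told apart.

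Peaks in the authors' reproducible set (by irreproducible discovery rate, IDR) numbered 8540, the peaks of highest signal among the 30000 positions of the list called on the pooled replicates, with signals from 84.1 to 6143 and a median of 194. The signal is the authors' own value for a peak, its scale is not given, and it serves here to describe and rank peaks within a list. An IDR signal is the same number as in the pooled list and is not an average of the replicates' signals. At nhr-71 itself 6 IDR summits were found, the strongest with a signal of 1117 at 2420 bp upstream, and at unc-119, the gene that carries the strain's tm4063 allele, 2 were found, with 345 the higher. These loci were looked at as the tagged gene and the marker of the transgene. Whether copies on the transgene contribute to these signals was not tested.

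All 10 cycle genes had at least 1 IDR summit in the gene body or 5000 bp upstream, against 41.8% of all protein-coding genes (8341 of 19973). With each replicate list reduced to its 8540 positions of highest signal, all 10 genes had a summit there in both. Of all 19973 protein-coding genes, 8487 had one in replicate 1 and 8476 in replicate 2. The share with one in both was not computed for this wide window. In a narrower promoter window, which reached 1000 bp upstream of the annotated start and 200 bp into the gene, 9 of 10 genes had a summit, against 20.8% of all genes. In both replicate lists together the promoter count was again 9 of 10, against 19.0% of all genes. The gene without one was ogdh-1. The windows searched were of ordinary length, with a median of 7070 bp for the cycle genes and 7027 bp for all genes. The genes were chosen with earlier results of these data known, so these shares describe the list and give no independent support.

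For most of the 10 genes the strongest summit lay just upstream of the start. The 10 genes held 19 IDR summits, of which 14 lay upstream of the gene and 5 inside it, and 12 lay in the gene's own promoter window. Over all protein-coding genes, 14564 summits fell at the 8341 genes with a summit, a shared one being counted for each gene. For the upstream, inside and promoter counts of summits, no share over all genes was computed. Since 5000 bp of a median window of 7070 bp is upstream, the upstream and inside counts by themselves show no clustering. The strongest summit was in the own promoter window for 9 of 10 genes, against 37.7% of the 8341 genes with a summit. For 8 of 10 genes it lay 100 to 350 bp upstream of the start, which was so for 17.8% of those 8341 genes; the limits of this band were set after the distances had been seen. The exceptions were idhb-1, with a summit 9 bp downstream of the start, and ogdh-1, whose strongest summit lay 1419 bp upstream. No summit of the 10 genes lay farther upstream than 2699 bp within the window, and the nearest one beyond its edge was 6585 bp upstream of idha-1.

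**Figure D1:**
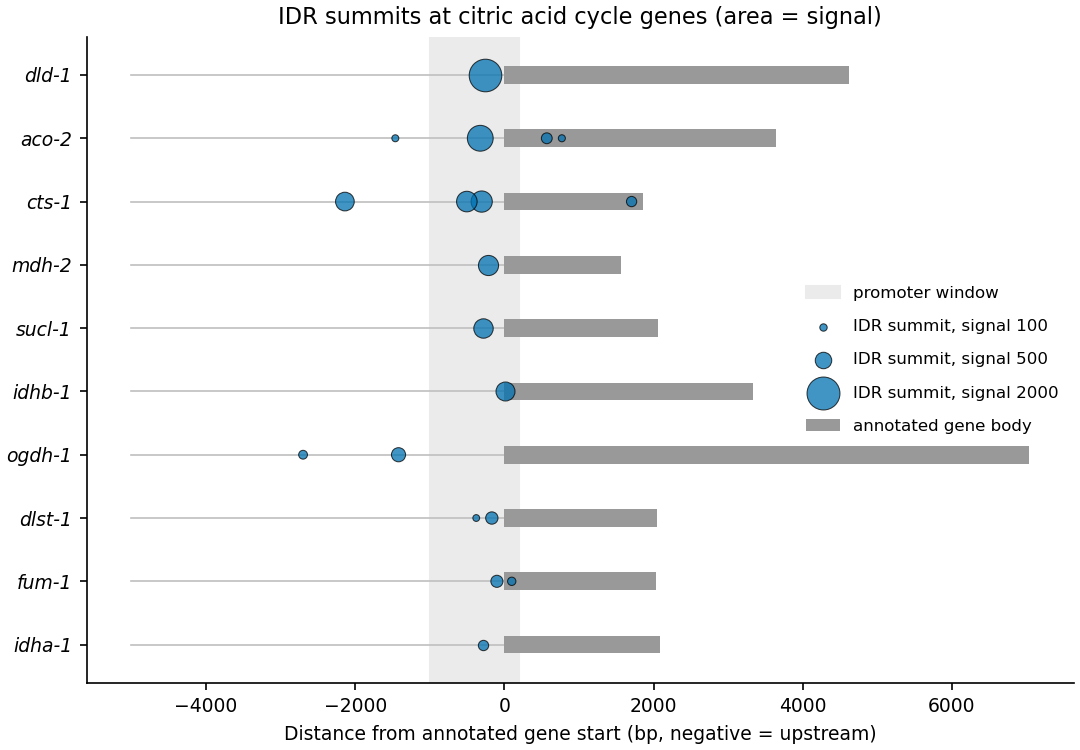
IDR summits at the 10 cycle genes by distance from the annotated gene start in bp (negative is upstream), 1 row per gene in order of strongest signal; circle area is the deposited signal, thick bars are gene bodies and the shaded band is the promoter window. The largest circle of every gene except ogdh-1 sits in the band, and 5 genes have a single summit.

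The sequence at the summits is shown for 6 genes, because these windows carry the strongest signals or the few sequence words discussed below. Each run is read from the RefSeq copy of WBcel235, 5′ to 3′ on the strand of the gene, and covers the 100 bp centred on the strongest summit, except that of aco-2, which holds the 57 bp of this window outside exons of protein-coding genes. Capitals mark a word from the list given after the sequences. The windows lie at chrIV:14464214-14464313 (plus strand) for dld-1, chrIII:7973387-7973443 (plus strand) for aco-2, chrIII:10216889-10216988 (minus strand) for cts-1, chrIII:6608271-6608370 (minus strand) for mdh-2, chrIV:4705380-4705479 (minus strand) for ogdh-1 and chrIII:7465455-7465554 (plus strand) for fum-1.
dld-1: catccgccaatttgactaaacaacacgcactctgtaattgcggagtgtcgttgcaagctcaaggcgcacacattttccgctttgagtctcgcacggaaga
aco-2: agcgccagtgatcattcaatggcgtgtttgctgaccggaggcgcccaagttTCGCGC
cts-1: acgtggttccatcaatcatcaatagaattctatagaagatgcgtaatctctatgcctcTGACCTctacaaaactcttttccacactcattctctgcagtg
mdh-2: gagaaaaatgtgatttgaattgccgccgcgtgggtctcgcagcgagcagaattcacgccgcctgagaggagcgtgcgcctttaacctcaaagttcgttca
ogdh-1: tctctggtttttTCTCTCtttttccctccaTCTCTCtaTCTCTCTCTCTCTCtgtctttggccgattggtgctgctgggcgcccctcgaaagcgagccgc
fum-1: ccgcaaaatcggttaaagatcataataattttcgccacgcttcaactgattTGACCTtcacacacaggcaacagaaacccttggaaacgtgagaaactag

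The half-site AGGTCA, to which many nuclear receptors bind, was in the window of 2 of the 10 strongest summits, cts-1 and fum-1, both times as its reverse complement TGACCT on the gene's strand. It begins 9 bp downstream of the summit base at cts-1 and 1 bp downstream at fum-1. Over all 8540 IDR summits 3.74% of windows held AGGTCA on either strand, and over all promoters, taken from 250 to 151 bp upstream of the start, 2.63% did. The fum-1 copy extends to AAGGTCA, a form that 1.22% of IDR windows and 0.826% of promoters hold; this longer word was added after the sequence had been seen. The second half-site searched, AAGTCA, was in none of the 10 windows (4.39% of IDR windows, 4.27% of promoters).

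A run of GAGAGA, read as TCTCTC on the gene's strand, crosses the ogdh-1 summit, with 7 overlapping or separate copies. This word was in 24.8% of all IDR windows and 7.42% of promoters, and no other of the 10 windows had it. The word GCGCGA, which resembles E2F sites, was in the window of the strongest summit at aco-2 and at no other of the 10 (4.43% of IDR windows, 1.58% of promoters). None of the 10 windows held GATAAG (6.67% of IDR windows, 4.85% of promoters), the E-box CACGTG (6.26% and 1.51%), TGACGT (7.10% and 3.35%) or TTTCAG, the splice acceptor word searched as a control (7.39% and 16.7%). Over the windows of all 19 summits, GATAAG was in 2, CACGTG in 1, TGACGT in 1, TTTCAG in 2, GCGCGA in 2, AGGTCA in 2, GAGAGA in 1 and AAGTCA in 0. All words were searched on both strands, and a word not found says only that its letters are not in this window.

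The windows were rich in G and C. The median GC content was 54% over the 10 strongest summits, 43% over all IDR summits (quartiles 37% and 49%) and 34% over the promoter windows. At 7 of 10 genes the GC content was at least 50%, as it was in 23.5% of IDR windows, and it was highest at idhb-1 with 60%. The GC content was 40% at cts-1, 41% at idha-1 and 42% at fum-1, close to the median of all peaks.

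The strongest signals of the 10 genes ran from 197 to 1959, with a median of 681. Over the 8341 genes with a summit the median was 301 (quartiles 166 and 574), and 7 of the 10 genes were above it. A shared summit counts for every gene whose window holds it, so these medians are not over independent peaks.

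**Figure D2:**
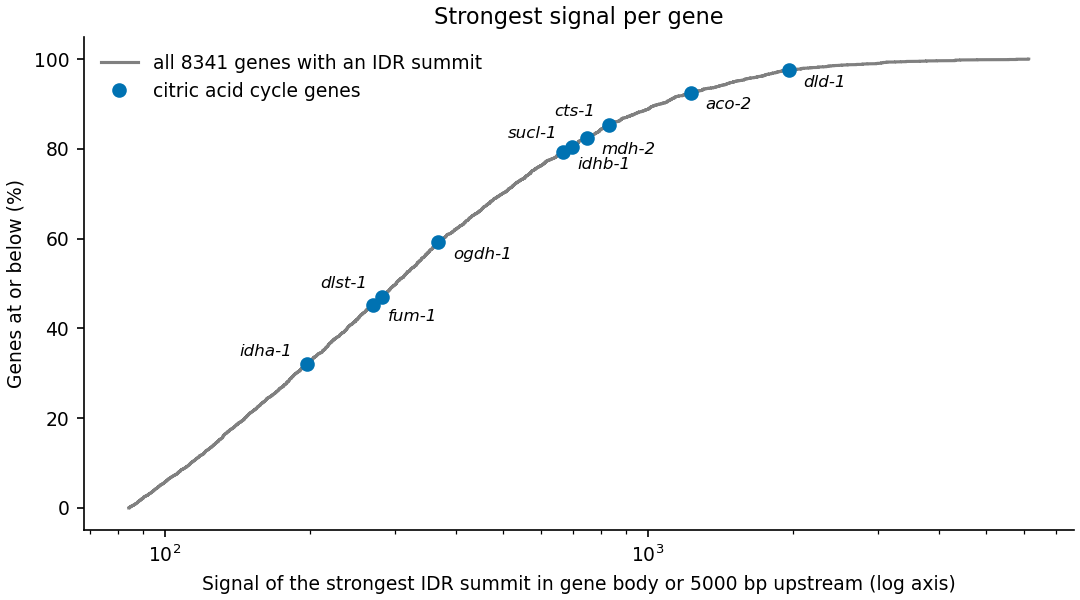
Percentage of the 8341 genes with an IDR summit (y axis) whose strongest signal is at or below the value on the x axis (log axis), with the cycle genes as points. The genes spread from idha-1 at 197 to dld-1 at 1959, and 3 of them lie below the median of 301.

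At the entry of the cycle, cts-1 (chrIII:10214771-10216635, minus strand) encodes citrate synthase, which joins acetyl-CoA and oxaloacetate. A wide peak of 726 bp upstream of it, at chrIII:10216617-10217342, held summits at 304 and 503 bp upstream with IDR signals of 832 and 780. The first had a signal of 438 in replicate 1 and 408 in replicate 2. In replicate 1 a single position, 473 bp upstream, stood for both summits, while replicate 2 had both, with 371 at the farther one. The next summit, 2138 bp upstream with a signal of 643, lay in the promoter windows of rde-4 and cox-14 and only 127 bp from the start of rde-4, which encodes a double-stranded RNA binding protein of RNA interference. The fourth lay in the 3′ untranslated exon of cts-1, 1706 bp from its start, with a signal of 195 (113 in replicate 1 and 92.8 in replicate 2).

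The mitochondrial aconitase gene aco-2 (chrIII:7973717-7977355, plus strand), whose product turns citrate into isocitrate, had the second highest signal of the 10 genes, at chrIII:7973222-7973625, with 1228 in the IDR set. It was 671 in replicate 1 and 559 in replicate 2, at ranks 332 and 354 of 30000. This summit lay 323 bp upstream of aco-2 and 8 bp from the start of eef-1B.1, a translation elongation factor gene on the opposite strand, so the peak cannot be given to one gene alone. With each summit given only to the nearest gene start, the highest signal left to aco-2 was 216, from an intron summit 569 bp downstream of its start (96.3 in replicate 1 and 126 in replicate 2). That summit, too, was inside the promoter window of eef-1B.1. The aco-2 gene has 4 annotated transcript starts, the last of them 888 bp downstream of the first, so the intron summit and a further one at 771 bp (signal 91.6) lie between its starts.

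The replicates were far apart at the weakest summits of aco-2. At 771 bp downstream the signal was 34.2 in replicate 1 and 91.4 in replicate 2, a log2 ratio of replicate 2 to replicate 1 of 1.42. At 1462 bp upstream (IDR signal 89.6, 94 bp from the start of F54H12.5) the matched positions had 49.9 in replicate 1 and 16.2 in replicate 2. There replicate 2 had positions on both sides of the IDR summit, at 1354 bp and 1571 bp upstream with signals of 16.2 and 37.5, and the nearer was taken.

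Isocitrate dehydrogenase, the NAD-dependent enzyme that releases the first carbon dioxide of the cycle, had unequal signals at the genes of its alpha subunit, idha-1, and its beta subunit, idhb-1. The idhb-1 peak at chrX:14173898-14174208 had a signal of 666, with 358 in replicate 1 and 313 in replicate 2. Its summit lay in the 5′ untranslated exon, 9 bp downstream of the first of a pair of annotated transcript starts that are 674 bp apart. The annotated start codon is 675 bp downstream of that first start. The idha-1 peak at chrI:8608703-8609122, with its summit 282 bp upstream of the gene, had the lowest strongest signal of the 10 genes, at 197, with 96.7 in replicate 1 and 94.6 in replicate 2. The signal at idhb-1 was 3.39 times that at idha-1 in the IDR set, 3.70 times in replicate 1 and 3.31 times in replicate 2.

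The 3 genes of the 2-oxoglutarate dehydrogenase complex differed more. Its dihydrolipoamide dehydrogenase, encoded by dld-1, is also a subunit of the pyruvate dehydrogenase complex, and its peak at chrIV:14464052-14464445 was the strongest of the 10 genes. The IDR signal was 1959 at rank 106, with 1088 at rank 101 in replicate 1 and 880 at rank 122 in replicate 2. The peak was 394 bp wide with its summit 253 bp upstream of dld-1, and it was the only IDR summit in the window. The nearest other IDR summit was 49897 bp away, against a median of 1938 bp over all IDR summits, and no other protein-coding promoter window held it. The strongest signals of 97.6% of the 8341 genes with a summit were at or below that of dld-1.

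The decarboxylating subunit of this complex is encoded by ogdh-1, and its succinyltransferase by dlst-1. The ogdh-1 summits at 1419 bp and 2699 bp upstream had IDR signals of 368 and 143. The stronger, at chrIV:4705313-4705545, had 159 in replicate 1 and 210 in replicate 2. It was the only strongest summit of the 10 genes with a higher signal in replicate 2. Its nearest annotated gene start was that of the snoRNA gene K08F11.8 at 537 bp, and after ogdh-1 the next protein-coding start, that of cif-1, was 5325 bp away. The dlst-1 summit, 168 bp upstream at chrV:6709137-6709373, had an IDR signal of 281, with 168 in replicate 1 and 110 in replicate 2. A weaker one 377 bp upstream had 85.1, close to the lowest IDR signal of 84.1.

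The signal at dld-1 was 5.32 times that at ogdh-1 in the IDR set (6.86 times in replicate 1 and 4.20 times in replicate 2) and 6.98 times that at dlst-1 (6.46 and 7.98 times). Between ogdh-1 and dlst-1 the order turned with the replicate, with ratios of 0.941 in replicate 1 and 1.90 in replicate 2. Within this complex, dld-1 therefore stood above both partners in each replicate, and the partners were not separated.

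In the steps from succinyl-CoA to oxaloacetate, the alpha subunit gene of succinyl-CoA ligase, sucl-1, had 1 summit 284 bp upstream at chrX:14753554-14753902. Its IDR signal was 696, with 362 in replicate 1 and 335 in replicate 2. The fumarase gene fum-1, whose product hydrates fumarate to malate, had 270 at 100 bp upstream (chrIII:7465295-7465714), with 146 in replicate 1 and 121 in replicate 2. A second fum-1 summit in its coding sequence, 99 bp downstream of the start, had 128, but the replicates disagreed on it, with 88.7 in replicate 1 and 25.8 in replicate 2, a log2 ratio of -1.78. The mitochondrial malate dehydrogenase gene mdh-2, whose product closes the cycle, had 747 at 215 bp upstream (chrIII:6608161-6608478), with 424 in replicate 1 and 320 in replicate 2. That summit also lay in the promoter window of F20H11.4, whose start on the opposite strand was 301 bp away.

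**Figure D3:**
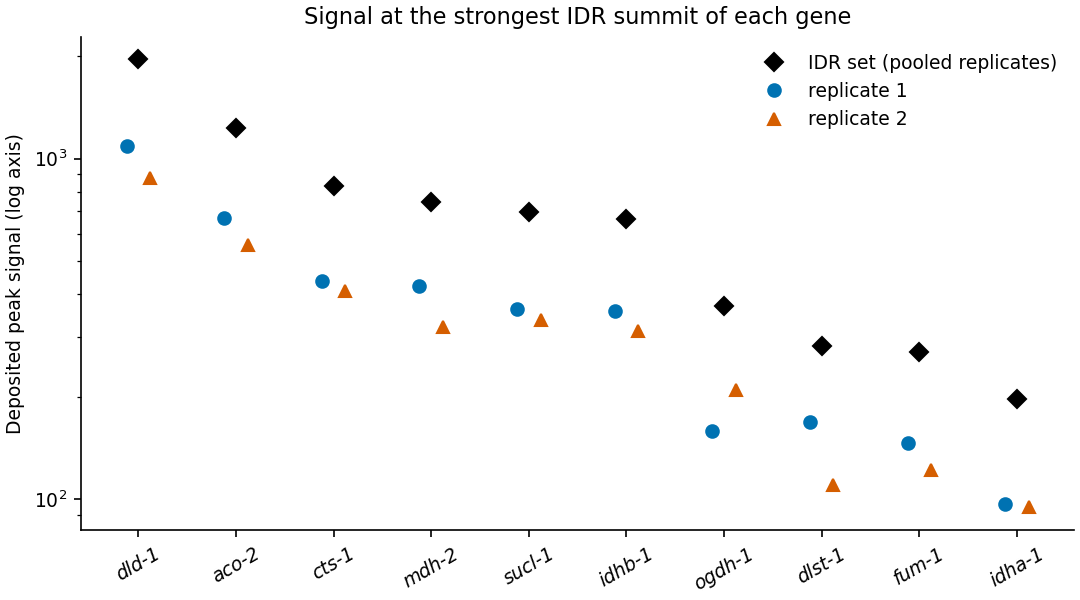
Deposited signal (log axis) at the strongest IDR summit of each cycle gene in the IDR set (diamonds), replicate 1 (circles) and replicate 2 (triangles), which come from separately called lists. Replicate 1 is above replicate 2 at 9 of 10 genes, and at ogdh-1 it is below, with 159 against 210.

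In order of IDR signal the genes were dld-1, aco-2, cts-1, mdh-2, sucl-1, idhb-1, ogdh-1, dlst-1, fum-1 and idha-1. Of the 9 pairs of neighbours in this order, 6 stood in the same order in both replicates. The pairs of mdh-2 and sucl-1, ogdh-1 and dlst-1, and dlst-1 and fum-1 turned in 1 replicate, so their order is within the spread between replicates. The cts-1 to mdh-2 ratio of 1.11 in the IDR set was 1.03 in replicate 1 and 1.27 in replicate 2, and the sucl-1 to idhb-1 ratio was 1.01 in replicate 1 and 1.07 in replicate 2. In replicate 1 the cts-1 value came from its single position 473 bp upstream, not from the summit at 304 bp. Across the 10 strongest summits Spearman's rho between the replicates was 0.952. This is a description over 10 points that share both libraries, and all of them were chosen as summits in the pooled data.

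The signal in replicate 2 was lower than in replicate 1 at most summits. The lists were called separately and can differ in scale. By rank within its list, cts-1 stood at 700 in replicate 1 and 643 in replicate 2, and idha-1 at 4514 and 4415. For cts-1 the replicate 1 summit lay 169 bp from the IDR summit, so its ranks belong to different positions. For sucl-1 the ranks were 941 and 874, and for ogdh-1 2699 and 1735. The strongest summits of the other genes ranked lower in replicate 2. Over the 10 strongest summits the median log2 ratio (replicate 2 over replicate 1) was -0.23, with an SD of 0.27 and a range from -0.61 to 0.40. It was -0.12, with an SD of 0.49, over the 8426 IDR summits that were matched in both replicates. Replicate 2 had the lower signal at 9 of the 10 strongest summits and at 15 of all 19, and at 63.1% of the 8426 matched summits. The places of the summits were compared as well. The IDR summits were called on the pool of these replicates, and the share over all IDR summits was not computed. At 9 of the 10 strongest summits both replicate summits lay within 50 bp of the IDR summit, the exception being cts-1 in replicate 1, and the same was so for 14 of all 19.

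**Figure D4:**
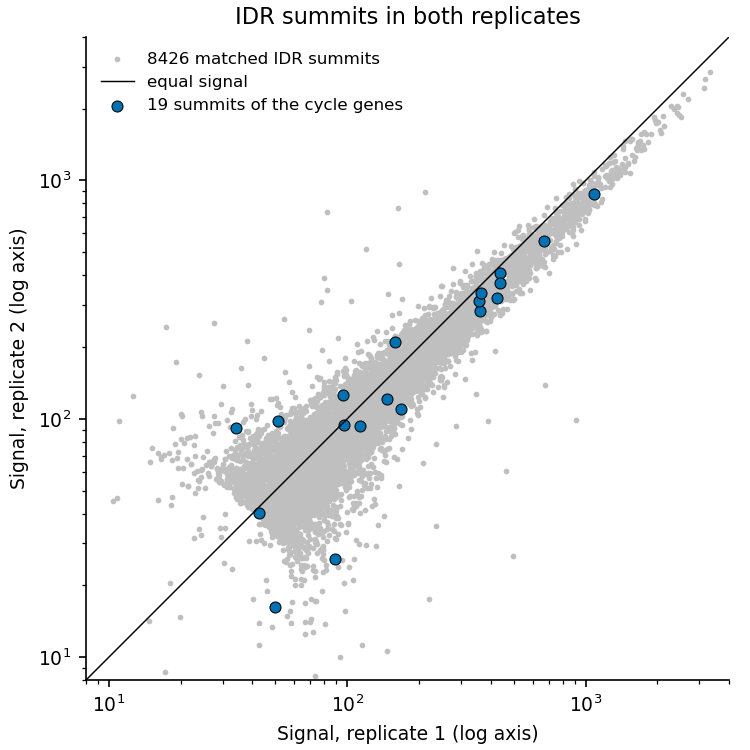
Signal in replicate 1 (x) and replicate 2 (y), both on log axes, for the 8426 IDR summits matched in both (grey) and the 19 summits of the cycle genes (blue); the line marks equal signal. The strong blue points lie just under the line, and the widest departures are weak summits of aco-2 and fum-1.

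The windows of the 10 genes also held positions of the pooled list below the IDR set. That set is the top of the pooled list, 8540 of its 30000 positions. Positions outside it therefore have signals below its lowest, 84.1, by definition, at any gene. The pooled list of 30000 positions had 48 in these windows, of which 29 were below the IDR set, with signals from 15.1 to 72.1. The highest of them were at mdh-2 (72.1) and at idhb-1 (71.8). The fum-1 window had no pooled position besides its IDR summits. The replicate lists, which run on into background, had 52 and 47 positions in the windows.

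Annotated non-coding RNA genes of the type ncRNA lay across 3 of the 10 strongest summits, at aco-2 (F54H12.9), dlst-1 (W02F12.11) and dld-1 (LLC1.120). Their starts were 67, 146 and 56 bp from the summit. Of all IDR summits, 6.70% lay in such a gene. What these transcripts do is not annotated in the files used here.

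Related genes code for further subunits and isoenzymes of the cycle enzymes and for succinate dehydrogenase. Where the isoenzymes act in the cell was not examined, so some may lie outside the mitochondrial cycle. Of these 15 genes (aco-1, idhg-1, idhg-2, idh-1, idh-2, ogdh-2, sucl-2, suca-1, sucg-1, sdha-1, sdha-2, sdhb-1, mev-1, sdhd-1 and mdh-1), 14 had an IDR summit in the wide window and 13 in the promoter window. The strongest summit was in the own promoter window for 8 of the 14 genes with a summit, against 37.7% of all genes with one. The median of the strongest signals was 332 over the 14 genes. The difference from the 10 core genes was not tested. The highest signals were at idh-1, a NADP-dependent isocitrate dehydrogenase gene (1521, at 3491 bp upstream and nearer to F38E11.9), sdha-1, for the flavoprotein of succinate dehydrogenase (954, at 215 bp upstream), and mev-1, for its cytochrome b subunit (874, at 129 bp upstream and also in the window of jmjd-4). The strongest promoter summit of idh-1 had 362.

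The gamma subunit genes of isocitrate dehydrogenase had 441 (idhg-1) and 317 (idhg-2, at 4275 bp upstream, with 153 in its promoter). The other alpha subunit gene of succinyl-CoA ligase, sucl-2, had 146 in the IDR set and no matched position in replicate 1. Of the beta subunit genes, suca-1 had 464 at 1035 bp upstream, and sucg-1 had no IDR summit, with a highest pooled signal of 60.4. The sdha-2 gene had no promoter summit, and its strongest one, 3908 bp upstream, had 136.

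Genes that feed pyruvate into the cycle were mixed. Of 8 genes (pdha-1, pdhb-1, dlat-1, pdhk-2, pdp-1, mpc-1, mpc-2 and pyc-1), 7 had an IDR summit in the wide window and 6 in the promoter window. The median of their strongest signals was 824 over the 7 genes, beside 681 for the 10 core genes. This median is the value of mpc-1, from a summit 1168 bp upstream and outside its promoter window. Within their promoter windows the strongest summits had only 206 at mpc-1, 132 at mpc-2 and 870 at pyc-1. The core medians rest mostly on promoter summits, so the lists are not compared at like places. The strongest summit was in the own promoter window for 3 of the 7 genes with a summit, against 37.7% of all genes with one. Here dld-1 can be set beside its partners in the pyruvate dehydrogenase complex: pdha-1 had no promoter summit and 359 at 3861 bp upstream (317 bp from the start of ufd-2), pdhb-1 had no position even in the pooled list, and dlat-1 had 130 in a promoter shared with fntb-1. By contrast the highest signals were at pyc-1, for pyruvate carboxylase (2016, at 1680 bp upstream and nearer to D2023.4), pdhk-2, for a pyruvate dehydrogenase kinase (1702, at 224 bp upstream), and mpc-2, for a subunit of the mitochondrial pyruvate carrier (1586, at 2785 bp upstream and nearer to unc-108). Of 18 glycolytic genes, 15 had a summit in the wide window and 8 in the promoter window, with a median strongest signal of 340 over the 15. None of these differences between lists was tested.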

How the data were processed

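The authors deposited narrowPeak lists per replicate, for pooled replicates and for the IDR set, each with a signal and a -log10 (q) per peak. The sources used here name no aligner, peak caller, IDR threshold or signal scale, and read depth is unknown. All IDR peaks carry the same -log10 (q), so only the signal was used. Only the ce11 lists were used; the ce10 lists and the control were not analysed here.

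Summits (start plus offset, or the last base of the peak) were assigned to genes of Ensembl release 115, and sequence came from RefSeq's copy of WBcel235. For a replicate value, the replicate position whose interval holds the IDR summit was taken, with the nearest summit of several. Window assignment was tested on simulated data. The tools were pandas 2.3.3 and NumPy 2.4.6 in Python 3.11.15, with SciPy 1.17.1 for Spearman's rho and Matplotlib 3.10.9 for plots. The members, lists and words were chosen with earlier results of these data known. All 10 members are named, with genes sharing or nearer to their strongest summit. Of the related cycle genes and the pyruvate genes, the 3 of highest signal and those with no summit are named. The subunit partners and paralogs with values, non-coding neighbours and neighbours of weaker summits were added after their values were seen. Many nematode genes are trans-spliced, so an annotated start can differ from that of transcription. Alternatives covered the windows, gene starts, peak threshold, matching and leaving out each replicate.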

Additional observations from a re-analysis of the deposited data

How the results depend on the processing

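The count of cycle genes with an IDR summit (10) and with a promoter summit (9) stayed within 1 gene under every alternative tried for them, and the count of summits (19) ranged from 14 to 21. The median strongest signal, 681, was 517 with each summit given only to the nearest gene start. In single replicate lists, whose signals are on their own scale, it ranged from 316 to 360. The share of summits in promoter windows, 63.2%, was 57.9% with 500 bp upstream, 73.7% with 2000 bp upstream, 73.7% from the start of any transcript and 71.4% with the 50% of IDR peaks of highest signal, and it ranged from 58.8% to 62.5% in single replicate lists. A wider window cannot hold fewer of the same 19 summits, so the changes with window and transcript start follow from the definition. The cause of the other changes was not tested. The median log2 ratio of the replicates kept its sign, at -0.26 with replicate summits within 100 bp (9 genes), -0.11 relative to all IDR summits and -0.24 over all 19 summits. The word AGGTCA was in 2 genes with 200 bp and 50 bp at the summit as well, and its longer form, added after the data were seen, was in 1. The other half-site, the E-box and the splice acceptor word were each in 1 gene with 200 bp, and the E2F-like word in 0 with 50 bp. Of the values of single genes and words, 69 stayed within their limits and 26 moved. Among those that moved were the strongest signals of all cycle genes in each single replicate list. Those lists have their own signal scale, so these moves do not speak to stability. No paired analysis was possible because there is 1 group. With 2 replicates and no read counts, the spread of a signal rests on a pair of values.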

Other observations

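A few of the secondary summits stood close to the main one. The pair upstream of cts-1 and the pair at the start of fum-1 were each 199 bp apart, and those of dlst-1 were 209 bp apart. Across the IDR set no 2 summits were closer than 199 bp, and 395 of 8534 neighbouring pairs were at most 220 bp apart. Whether such a pair is 2 sites or 1 wide one was not tested.

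The upstream neighbourhoods differed in how empty they were. The next IDR summit beyond the 5000 bp edge was 50150 bp upstream of dld-1, 42552 bp upstream of dlst-1 and 20048 bp upstream of cts-1, and 6844 bp upstream of sucl-1.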
